A study of Homo sapiens with 6 samples.

Results

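The MX and GBP genes encode interferon-induced GTPases, and 7 of them, *MX1*, *MX2* and *GBP1* to *GBP5*, were followed here out of the 19225 gene symbols measured. The 7 genes were chosen by name, with their control and MDM4 values already known, to set MX genes, which respond mainly to type I and III interferon, beside GBP genes, which respond more to interferon-gamma. Their differences between the groups are therefore given as a description. Where a fit across all genes is used, it is said which of them met its rule, beside the share of all genes that did, and nothing is read from it. The values come from RNA sequencing of SW480 cells, a mutant-p53 line established from a colon cancer, in which 3 control libraries were compared with 3 libraries of cells transiently transfected with plasmids encoding MDM4, a p53-binding relative of MDM2. The labels describe all 6 libraries as plasmid-transfected, and what the control plasmid held is not given in the sources used here. Within each group the libraries carry the replicate numbers 1 to 3, and nothing says that they came from separate cultures, so any p-value measures only the spread between these libraries, which may be technical.

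MX proteins are large GTPases of the dynamin superfamily that block incoming viruses. MX1 acts mainly in the cytoplasm against RNA viruses such as influenza virus, and MX2 acts at the nuclear envelope against HIV and herpesviruses. Their genes are transcribed when type I or type III interferon activates a transcription factor complex that contains IRF9 and binds interferon-stimulated response elements. Guanylate-binding proteins (GBPs) are GTPases that gather on the membranes of intracellular bacteria and parasites and promote inflammasome activation. GBP1, GBP2 and GBP5 carry a lipid anchor added by prenylation, and GBP genes are induced strongly by interferon-gamma through gamma-activated sites as well as through response elements.

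On GRCh38 (GENCODE release 29), *MX2* and *MX1* lie side by side on the plus strand of chromosome 21, at chr21:41361943-41409390 and chr21:41420304-41459214. The 5 GBP genes lie on the minus strand of chromosome 1, in the order *GBP3* (chr1:89006666-89022894), *GBP1* (chr1:89052319-89065360), *GBP2* (chr1:89106132-89150456), *GBP4* (chr1:89181148-89198932) and *GBP5* (chr1:89258950-89272804). All 7 are annotated as protein-coding.

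Promoter windows from RefSeq on GRCh38.p14, each running from 250 bases before an annotated start to 50 bases after it, were matched for 4 of the 7 genes (*MX1*, *GBP1*, *GBP3* and *GBP4*), with 6 windows in all because *MX1* has 3. Each window was searched on both strands for the response element letters, GAAA repeated after a gap of 1 base (GAAANGAAA) or 2 bases, and for the gamma-activated site letters TTCNNNGAA. The 2 windows at the upstream starts of *MX1* and those of *GBP1* and *GBP3* are shown, because *MX1* had the widest and *GBP3* the narrowest difference between the groups among the genes past the filter used below, with *GBP1* in between, and because response element letters occur in each window. Capitals mark the matches, and the letters run 5′ to 3′ on the strand of the gene.
MX1, window 1 (chr21:41420308-41420607, plus strand): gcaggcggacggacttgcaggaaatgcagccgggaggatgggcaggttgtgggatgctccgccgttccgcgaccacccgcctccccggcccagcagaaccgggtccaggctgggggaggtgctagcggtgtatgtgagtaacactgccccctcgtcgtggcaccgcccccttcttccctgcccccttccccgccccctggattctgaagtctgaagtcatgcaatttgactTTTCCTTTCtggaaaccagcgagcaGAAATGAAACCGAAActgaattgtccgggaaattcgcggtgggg
MX1, window 2 (chr21:41425989-41426288, plus strand): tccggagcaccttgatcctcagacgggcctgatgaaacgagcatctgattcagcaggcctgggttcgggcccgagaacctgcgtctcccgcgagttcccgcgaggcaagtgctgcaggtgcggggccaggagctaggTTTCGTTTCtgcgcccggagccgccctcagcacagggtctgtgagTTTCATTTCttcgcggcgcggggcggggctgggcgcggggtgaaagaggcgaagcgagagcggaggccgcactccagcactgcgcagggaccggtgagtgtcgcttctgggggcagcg
GBP1 (chr1:89065159-89065458, minus strand): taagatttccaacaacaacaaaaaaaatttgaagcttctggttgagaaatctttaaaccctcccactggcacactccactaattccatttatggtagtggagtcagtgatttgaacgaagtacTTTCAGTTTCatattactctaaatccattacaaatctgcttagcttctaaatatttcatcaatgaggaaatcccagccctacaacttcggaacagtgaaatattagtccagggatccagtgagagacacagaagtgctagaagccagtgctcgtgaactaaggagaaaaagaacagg
GBP3 (chr1:89022817-89023116, minus strand): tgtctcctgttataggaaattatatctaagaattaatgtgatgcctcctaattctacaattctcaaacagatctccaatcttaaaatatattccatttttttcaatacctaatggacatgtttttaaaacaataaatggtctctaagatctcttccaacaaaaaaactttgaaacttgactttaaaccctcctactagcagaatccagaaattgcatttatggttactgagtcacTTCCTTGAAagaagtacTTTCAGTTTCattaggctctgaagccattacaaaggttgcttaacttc

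Counted from the 5′ end of the window, *MX1* window 1 holds GAAATGAAA at base 257 and GAAACCGAAA at base 262, which overlap, and TTTCCTTTC, the element on the other strand, at base 232. *MX1* window 2 holds TTTCGTTTC at base 138 and TTTCATTTC at base 183. *GBP1* and *GBP3* hold the same 10 letters, TTTCAGTTTC, at base 124 and at base 253. *GBP3* also holds the gamma-activated site letters TTCCTTGAA at base 236. The remaining windows hold matches as well, with TTTCTCTTTC at base 55 and the overlapping TTCCGTGAA at base 62 in *MX1* window 3, and TTTCAATTTC at base 247 in *GBP4*. Over the 35116 promoter windows of that table, 6.40% hold either response element (3.57% with the 2-base gap and 3.12% with the 1-base gap) and 7.66% hold TTCNNNGAA. A match describes letters only, and binding was not measured. Sites with other letters were not searched, so the absence of a match, as for TTCNNNGAA in *GBP1*, does not show that a site is absent.

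The depth was similar across the libraries. The authors deposited FPKM, which is the number of reads on a gene divided by the gene's length and by the library's total, and because each gene's values were whole multiples of a step, the reads behind them could be recovered for 17188 of the 17189 symbols above 0. The reads assigned to genes numbered 32923184 in the shallowest library and 44563620 in the deepest. The level of *MDM4* was 6.35, 7.09 and 5.13 FPKM in the control and 188, 185 and 56.3 FPKM in the MDM4 libraries (replicates 1 to 3, as in the lists of values that follow), so each MDM4 library lay above each control library and MDM4 replicate 3 was the lowest of the 3. Colon epithelial markers summed to between 4221 and 4902 FPKM, with 7 of 10 at 1 FPKM or more in every library, whereas immune markers summed to between 6.22 and 7.41 FPKM (1 of 8), fibroblast markers to between 1.75 and 3.91 FPKM (1 of 4) and endothelial markers to between 0.316 and 0.648 FPKM (0 of 3). None of these markers was at 0 in all 6 libraries, and the immune markers summed to between 6.35 and 7.41 FPKM in the control and between 6.22 and 7.28 FPKM in the MDM4 libraries.

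*MX1* was the most abundant of the 7 genes and showed the widest difference. The control libraries had 30.6, 30.4 and 5.65 FPKM (3828, 3037 and 637 reads), and the MDM4 libraries 3.86, 3.75 and 5.26 FPKM (394, 365 and 487 reads). The groups did not overlap, but control replicate 3 lay just above MDM4 replicate 3 and far below the other control libraries. The mean was 22.2 ± 14.3 FPKM in the control and 4.29 ± 0.841 FPKM in the MDM4 libraries (SD, n = 3 each).

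By replicate number, *MX1* was 7.91-fold and 8.10-fold higher in the control library in replicates 1 and 2, and 1.07-fold higher in replicate 3. Within the control group, the mean of replicates 1 and 2 was 5.39 times the value of replicate 3, whereas within the MDM4 group replicate 3 was 1.38 times the mean of replicates 1 and 2. Because these are bulk samples, fewer cells expressing a gene and less RNA per cell cannot be told apart.

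*MX2* followed the same order at a lower level, and its groups overlapped. Its values were 9.75, 7.90 and 1.91 FPKM in the control (1291, 834 and 227 reads) and 1.57, 1.48 and 2.0 FPKM in the MDM4 libraries (169, 152 and 196 reads). Control replicate 3 lay within the range of the MDM4 libraries. The mean was 6.52 ± 4.10 FPKM against 1.68 ± 0.281 FPKM (SD, n = 3 each), and the control library was 6.22-fold and 5.34-fold higher in replicates 1 and 2, while in replicate 3 the MDM4 library was 1.05-fold higher.

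*GBP3* had nearly the mean level of *MX2* over the 6 libraries (4.20 against 4.10 FPKM) but varied little among them. It was 4.39, 4.41 and 4.23 FPKM in the control and 4.19, 3.69 and 4.30 FPKM in the MDM4 libraries, with between 360 and 551 reads in each. The groups overlapped, with means of 4.34 ± 0.0992 FPKM and 4.06 ± 0.323 FPKM (SD, n = 3 each).

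*GBP1*, the best studied of the guanylate-binding proteins which coats cytosolic bacteria, was expressed at a low level. Its values were 0.770, 0.910 and 0.253 FPKM in the control (105, 99 and 31 reads) and 0.531, 0.368 and 0.198 FPKM in the MDM4 libraries (59, 39 and 20 reads). Replicate 3 was the lowest library of each group, so the groups overlapped, although the control library was higher in each same-numbered pair, by 1.45-fold, 2.47-fold and 1.27-fold. In contrast to the MX genes, *GBP1* was lower in replicate 3 than in replicates 1 and 2 in the MDM4 group as well, where the mean of replicates 1 and 2 was 2.27 times replicate 3, against 3.33 times in the control.

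*GBP2* was low as well, and *GBP4* and *GBP5* were close to the detection limit. *GBP2* was 0.563, 0.455 and 0.313 FPKM in the control and 0.326, 0.523 and 0.491 FPKM in the MDM4 libraries (between 49 and 104 reads). The groups overlapped, with means of 0.443 ± 0.125 FPKM and 0.446 ± 0.106 FPKM (SD, n = 3 each) and no shared direction among the 3 pairs. The span of *GBP2* overlaps that of *GBP7* on the same strand, so its reads are uncertain to that extent. *GBP4* was between 0.0183 and 0.0655 FPKM in the control and between 0.0188 and 0.0492 FPKM in the MDM4 libraries, on 4 to 18 reads. *GBP5*, a promoter of inflammasome assembly, was 0.0447, 0.0772 and 0.0559 FPKM in the control (8, 11 and 9 reads) and 0.0137, 0.0288 and 0.0303 FPKM in the MDM4 libraries (2, 4 and 4 reads). Its groups did not overlap, but 3 reads correspond to between 0.0168 and 0.0227 FPKM in these libraries, so 1 MDM4 library lay under the value of 3 reads and the others just above it.

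**Figure D1:**
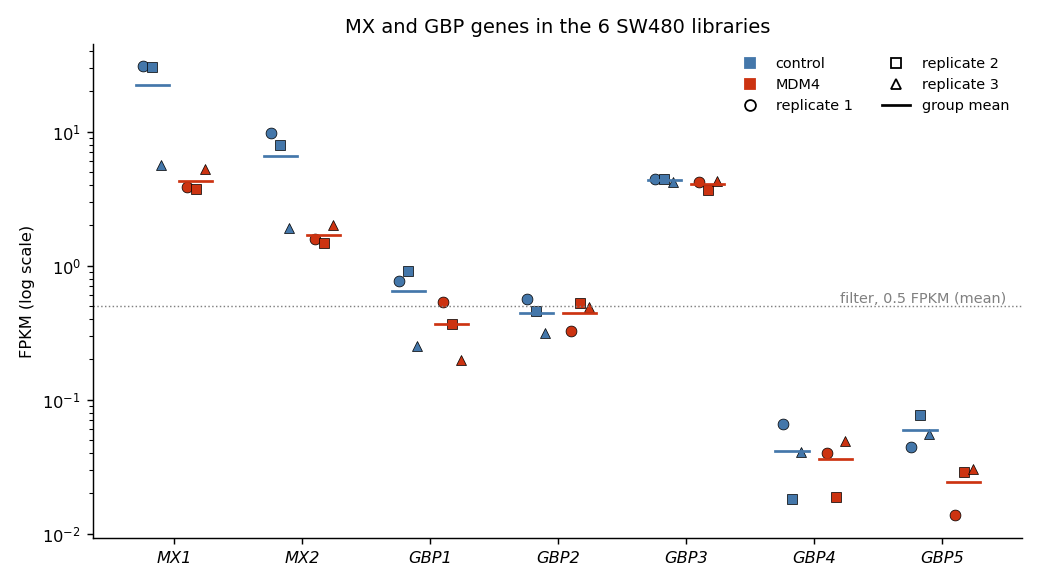
FPKM on a log axis of the 7 genes in each library, with control in blue, MDM4 in red, marker shape giving the replicate number and horizontal lines giving group means (n = 3 each). For *MX1* and *MX2*, control replicates 1 and 2 stand far above the other 4 libraries, *GBP3* is nearly level between 3.69 and 4.41 FPKM, and *GBP4* and *GBP5* lie under 0.1 FPKM.

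The differences were placed on a common scale with limma, a linear model fitted across genes, on log2(FPKM + 0.1). The fit covered 12884 genes, those whose mean reached 0.5 FPKM, and 4 of the 7 genes passed this filter (*MX1*, *MX2*, *GBP1* and *GBP3*). *GBP1*, with a mean of 0.505 FPKM, lay just inside it and *GBP2*, with 0.445 FPKM, just outside. For *GBP2*, *GBP4* and *GBP5* the values come from a fit over all 17189 genes above 0. The added 0.1 FPKM shrinks the differences of such low genes, and that of *GBP1* as well.

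The log2 fold change of MDM4 against control was -2.01 (standard error 0.60) for *MX1*, the 6th lowest of the 12884 genes, and -1.61 (0.55) for *MX2*, the 12th lowest. It was -0.60 (0.48) for *GBP1* and -0.10 (0.13) for *GBP3*, which ranked 87th and 2873rd. It was 0.02 (0.27) for *GBP2*, -0.05 (0.18) for *GBP4* and -0.36 (0.15) for *GBP5*. The median over all genes tested was -0.01.

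A gene was called when its log2 fold change was beyond 1 in either direction and its adjusted p was under 0.05. By this rule limma called 0 of the 12884 genes over the 6 libraries (0%), so 0 of the 4 genes that passed the filter. The smallest adjusted p was 0.161, the value of the transfected gene *MDM4* itself, at a log2 fold change of 4.33 (standard error 0.43). A count of 0 in this fit therefore does not show that genes did not differ. At an unadjusted limma p under 0.05 there were 222 of the 12884 genes, a smaller share than the 0.05 that would fall there without any difference. With the replicate number added to the model as a block, there were 1624. Without the block, voom on the recovered reads, which models reads in place of FPKM, also called 0. The groups did not overlap, with MDM4 lower, for *MX1* among the 4 genes and for 3.76% of all genes tested. MDM4 was lower in each of the 3 same-numbered pairs for *MX1* and *GBP1* among the 4 genes and for 18.6% of all genes tested. Since the 7 genes were selected with these values in view, nothing is read from these counts.

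The MX genes differed in replicates 1 and 2 and hardly in replicate 3. Of the 7 genes, 7 were lower with MDM4 in replicate 1, 5 in replicate 2 and 3 in replicate 3. Of the 12884 genes tested, 6932, 6369 and 6573 were lower in these replicates, and nothing is read from the counts. On the log2 scale *MX1* differed by -2.95, -2.98 and -0.10 in replicates 1 to 3 and *MX2* by -2.56, -2.34 and 0.07. The difference of *GBP1* was -0.46, -1.11 and -0.24, and that of *GBP3* was -0.07, -0.25 and 0.02.

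**Figure D2:**
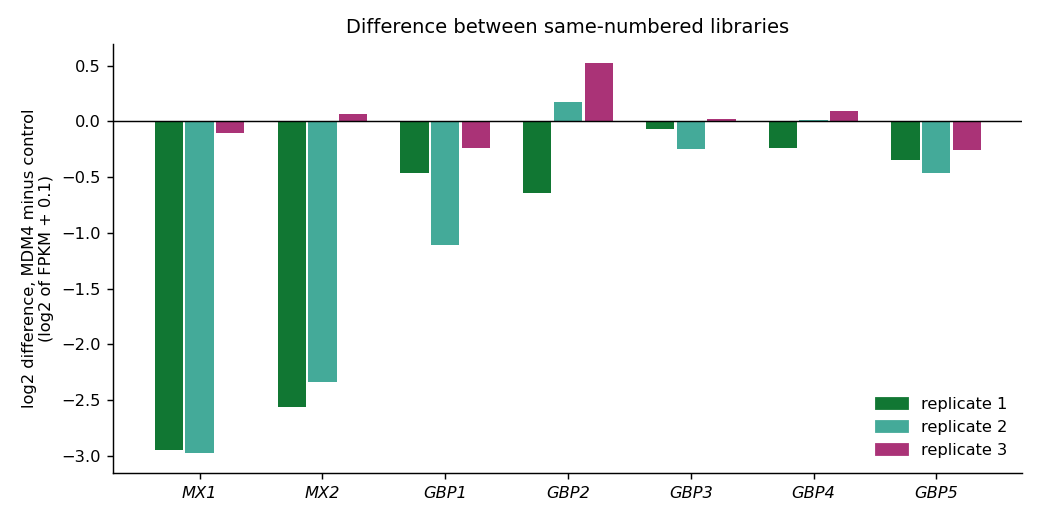
Log2 difference, MDM4 minus control, between libraries of the same number for each of the 7 genes, on log2(FPKM + 0.1), with a bar for each replicate. In *MX1* and *MX2* the bars of replicates 1 and 2 lie between -2.98 and -2.34 and those of replicate 3 at -0.10 and 0.07. *MX1*, *GBP1* and *GBP5* have bars below 0 in all 3 replicates, with *GBP5* on between 2 and 11 reads in each library.

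In a fit of replicates 1 and 2 alone, the log2 fold changes of *MX1* and *MX2* were -2.97 (standard error 0.10) and -2.45 (0.15). They were -0.79 (0.28) for *GBP1* and -0.16 (0.13) for *GBP3*. In that fit 36 of 12746 genes (0.282%) were called lower, *MX1* and *MX2* among them, which is no test of these genes because they were selected on these values and the fit leaves out the replicate in which they hardly differed. With the replicate number as a block over the 6 libraries, the standard error was 0.44 for *MX1* and 0.40 for *MX2*, and 2 genes were called. These were *MDM4*, which was higher, and *CKMT1B*, a mitochondrial creatine kinase gene named after its value was seen, which was lower (0.00776% of genes called lower). With voom and the replicate block together, *MX1* was at -2.35 (standard error 0.34), *MX2* at -1.95 (0.32), *GBP1* at -0.77 (0.27) and *GBP3* at -0.10 (0.11). There 0.101% of genes were called lower, again with *MX1* and *MX2* among them and again as a description.

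A term for the difference of the MDM4 effect in replicate 3 from that in replicates 1 and 2 was 2.87 (standard error 0.18) for *MX1* and 2.52 (0.27) for *MX2* on the log2 scale. It was 0.55 (0.54) for *GBP1* and 0.18 (0.23) for *GBP3*. Over all genes tested, 24 (0.186%) had a positive term with an adjusted p under 0.05 in limma. The term rests on 1 pair of libraries, and what set replicate 3 apart was not tested. For *MX1* most of the term lay in the control libraries, at 30.6, 30.4 and 5.65 FPKM. The MDM4 libraries were at 3.86, 3.75 and 5.26 FPKM. *MDM4* was 29.7-fold, 26.1-fold and 11.0-fold higher in the MDM4 library of replicates 1, 2 and 3, and a link between its level and the term was not tested.

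The contrast between the families followed the replicates in the same way. The mean log2 level of *MX1* and *MX2* minus that of *GBP1* and *GBP3* was 3.14, 2.87 and 1.46 in the control and 0.64, 0.89 and 1.55 in the MDM4 libraries, so the 2 replicate 3 libraries were alike and the groups overlapped. It averaged 2.49 ± 0.90 in the control and 1.03 ± 0.47 with MDM4 (SD, n = 3 each), a difference of -1.46 that was -2.49, -1.98 and 0.09 by replicate. With all 5 GBP genes, low values included, the difference was -1.59.

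Over the 6 libraries *MX1* and *MX2* had a Pearson correlation of 1.0, as a description of points in which control replicates 1 and 2 stand apart. The correlation of *MX1* was 0.77 with *GBP1*, 0.44 with *GBP2*, 0.65 with *GBP3*, 0.15 with *GBP4* and 0.72 with *GBP5*, and that of *GBP1* with *GBP3* was 0.33. The genes outside the 7 whose profile was nearest to the mean of *MX1* and *MX2* were *IFI6* (r = 0.996), *ST7L* (0.995), *PARP9* (0.993), *OAS1* (0.992) and *IFIT2* (0.991). Of these, *IFI6* ran from 15.2 to 170 FPKM, while *ST7L* ran only from 2.22 to 2.74 FPKM. Those nearest to the mean of *GBP1* and *GBP3* were *NKAIN1* (0.987), *NEDD9* (0.972), *NEK8* (0.968), *SLC2A3* (0.963) and *COMMD7* (0.962), with log2 fold changes between -0.19 and -0.09.

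Among other genes that type I and III interferon induce, most were lower with MDM4 in replicates 1 and 2. Of 26 such antiviral genes 23 were tested, and none was called over the 6 libraries. Of the 23, 22 had a negative log2 fold change, against 6803 of the 12884 genes tested. The median was -1.07, against -0.01 for all genes. Over replicates 1 and 2, limma called 18 of the 23 lower, against 0.282% of all genes, with a median of -1.65. That fit leaves out replicate 3, where the median difference was 0.03. With voom and the replicate block 7 were called lower, against 0.101% of all genes. The groups did not overlap, with MDM4 lower, for 7 of the 23, against 3.76% of all genes tested. The list was chosen with earlier results of these data known, so these counts are a description.

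*XAF1*, an apoptosis-promoting gene, had the lowest log2 fold change of the list, at -2.41 (standard error 0.64), and was 1.60, 1.46 and 0.235 FPKM in the control and 0.0916, 0.0320 and 0.135 FPKM in the MDM4 libraries. *IFI6*, a mitochondrial and endoplasmic reticulum protein that restricts flaviviruses, was at -2.29 (0.72), and *IFI27*, a mitochondrial protein, at -1.88 (0.51). In limma the adjusted p of each was 1 over the 6 libraries, and over replicates 1 and 2 it was 2.14e-04 for *XAF1*, 3.83e-10 for *IFI6* and 6.47e-07 for *IFI27*. That fit leaves out replicate 3, where their log2 differences were only -0.51, -0.12 and -0.42. Its p-values therefore describe replicates 1 and 2 and are no test over all libraries. *XAF1* passed the filter through its control libraries, with a mean of 1.10 FPKM against 0.0861 FPKM with MDM4.

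Genes biased to interferon-gamma, many of which type I interferon also induces, were closer to 0. Of 22 listed, 17 were tested, and 13 had a negative log2 fold change, against 6803 of the 12884 genes tested. The median was -0.19 over the 6 libraries and -0.27 over replicates 1 and 2, and 0 were called in either fit. *HLA-DPA1*, an MHC class II chain, had -0.54 (standard error 0.25), *PSMB8*, an immunoproteasome subunit, -0.39 (0.12) and *CD74*, the MHC class II invariant chain, -0.26 (0.09). For each of these 3 the groups did not overlap, with an adjusted p of 1 in limma. In the list, 4 of the 17 did not overlap with MDM4 lower, against 3.76% of all genes tested. For *HLA-DPA1* the gap was narrow, from 0.654 FPKM (40 reads) in the lowest control library to 0.638 FPKM (38 reads) in the highest MDM4 library.

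**Figure D3:**
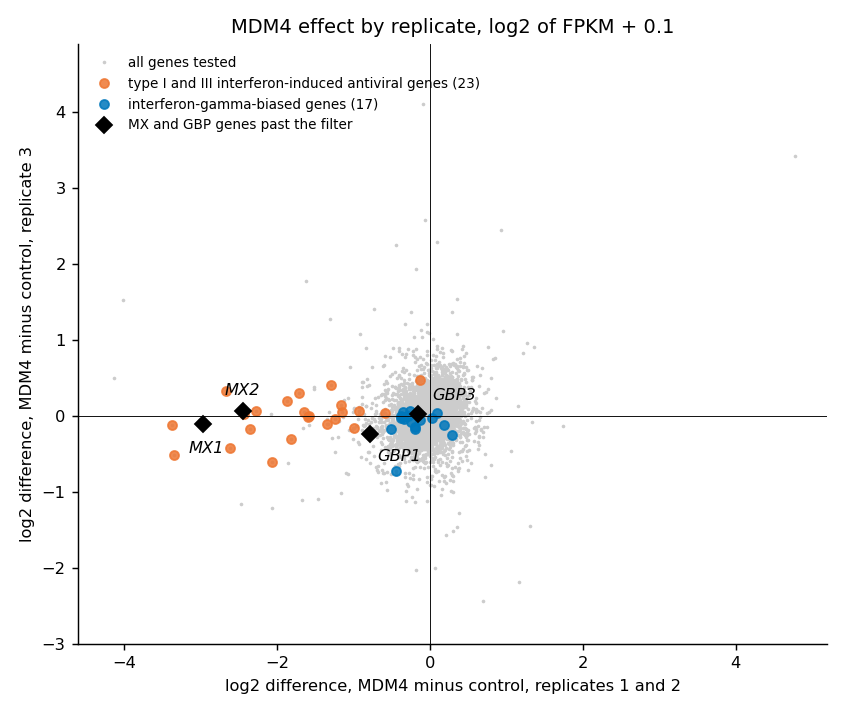
Log2 difference, MDM4 minus control, on log2(FPKM + 0.1), in replicates 1 and 2 (mean, x axis) and in replicate 3 (y axis) for the 12884 genes tested (grey), the 23 antiviral genes (orange), the 17 interferon-gamma-biased genes (blue) and *MX1*, *MX2*, *GBP1* and *GBP3* (black). *MX1* and *MX2* lie far to the left among the antiviral genes and near 0 on the y axis, and *GBP3* lies near 0 on both axes, among the interferon-gamma-biased genes. *GBP1* lies further left than *GBP3*, at -0.79 on the x axis and -0.24 on the y axis.

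The interferon ligands were present in few reads, and mainly in control replicates 1 and 2. The type III interferon *IFNL1* had 9 and 11 reads in control replicates 1 and 2 and 0 in each of the other 4 libraries. *IFNL2* had 43, 55 and 0 reads in the control and 0, 0 and 1 with MDM4, and *IFNL3* 57, 51 and 0 in the control and 2, 0 and 4 with MDM4, where reads may be divided between these near-identical genes. Over the 6 libraries neither *IFNL2* nor *IFNL3* passed limma (adjusted p = 1 for each), and over replicates 1 and 2 both were called lower (adjusted p = 7.95e-05 for each). Both genes passed the filter only through control replicates 1 and 2, and that fit leaves out replicate 3, so the call is no test of them. The size also depends on the value added before the logarithm. The median log2 fold change of these 2 genes was -2.38 with 0.1 FPKM added and -0.95 with 1 FPKM added.

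*IFNB1*, the main type I interferon of epithelial cells, had 2, 6 and 0 reads in the control and 0 in each MDM4 library. *IFNE*, an epithelial type I interferon, went the other way, with 4, 4 and 18 reads in the control and 23, 25 and 26 with MDM4. *IFNA1* had 4 reads in MDM4 replicate 3 and 0 elsewhere, and *IFNG*, which encodes interferon-gamma, *IFNK*, *IFNW1* and *IFNA2* were listed at 0 in all 6 libraries.

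The receptors were expressed in every library and differed little. *IFNAR1* and *IFNAR2*, the type I receptor chains, had log2 fold changes of 0.01 (standard error 0.10) and -0.03 (0.13), and *IFNLR1* and *IL10RB*, the type III chains, -0.09 (0.31) and -0.10 (0.19). The interferon-gamma chains *IFNGR1* and *IFNGR2* were at 0.01 (0.08) and -0.21 (0.08), and *IFNGR2* did not overlap between the groups, at 22.0, 23 and 22.3 FPKM in the control and 18.8, 18.9 and 20.5 FPKM with MDM4. It was 1 of the 6 receptor genes to do so with MDM4 lower, against 3.76% of all genes tested. None of the 6 was called over the 6 libraries or over replicates 1 and 2.

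Among the signalling genes described here, *IRF9* had the widest difference. *IRF9*, an interferon-induced DNA-binding subunit of the response element complex, was 19.6, 17.2 and 6.98 FPKM in the control and 3.80, 4.76 and 7.12 FPKM with MDM4, and its log2 fold change was -1.38 (standard error 0.40, limma adjusted p = 1). Over replicates 1 and 2, *IRF9* was called at -2.08 (limma adjusted p = 3.42e-06), in a fit that leaves out replicate 3. In replicate 3 the control and MDM4 libraries were alike, at 6.98 and 7.12 FPKM, so the call describes replicates 1 and 2 only. *STAT2* (-0.12), *JAK1* (0.04), *JAK2* (0.22) and *TYK2* (-0.16) were not called in either fit.

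Relatives and partners of the 2 families were not called in any of the fits above. Of 14 other dynamin superfamily genes 13 were tested, with a median log2 fold change of 0.02, and the widest were *DNM1* (-0.19), *EHD2* (0.17) and *EHD1* (-0.15), which act in endocytosis and endosome recycling. Of the other interferon-induced GTPases, *GBP6* was listed at 0 in all 6 libraries, *GBP7* had between 2 and 9 reads, *IRGM* and *IRGC* between 0 and 8, and *IRGQ*, at 0.02, was the only gene tested. Prenylation enzymes had a median of -0.01 over 4 tested (*RCE1* -0.05, *FNTA* 0.05, *ICMT* -0.02). Of 8 inflammasome genes linked to GBPs 4 were tested, with *PYCARD*, the adaptor ASC, at -0.47, *IL18* at 0.30 and *GSDMD*, the pore-forming gasdermin, at -0.16, and the DNA sensor *AIM2* was listed at 0.

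The neighbours on the chromosomes that passed the filter had log2 fold changes near 0 or above it. Within 500000 bases of the MX genes, 4 of 6 other protein-coding genes were tested (*BACE2*, *RIPK4*, *PRDM15* and *C2CD2*), with log2 fold changes from -0.01 to 0.11. Within 500000 bases of the GBP genes, 6 of 9 were tested (*PKN2*, *GTF2B*, *KYAT3*, *RBMXL1*, *LRRC8B* and *LRRC8C*), from 0.06 to 0.26. Of the neighbours under the filter, *FAM3B* was at 0.12 (standard error 0.58), *TMPRSS2* at -0.19 (0.73) and *GBP7* at -0.32 (0.18) in the fit over all genes above 0. None of the 10 neighbours tested was called over the 6 libraries or over replicates 1 and 2.

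**Figure D4:**
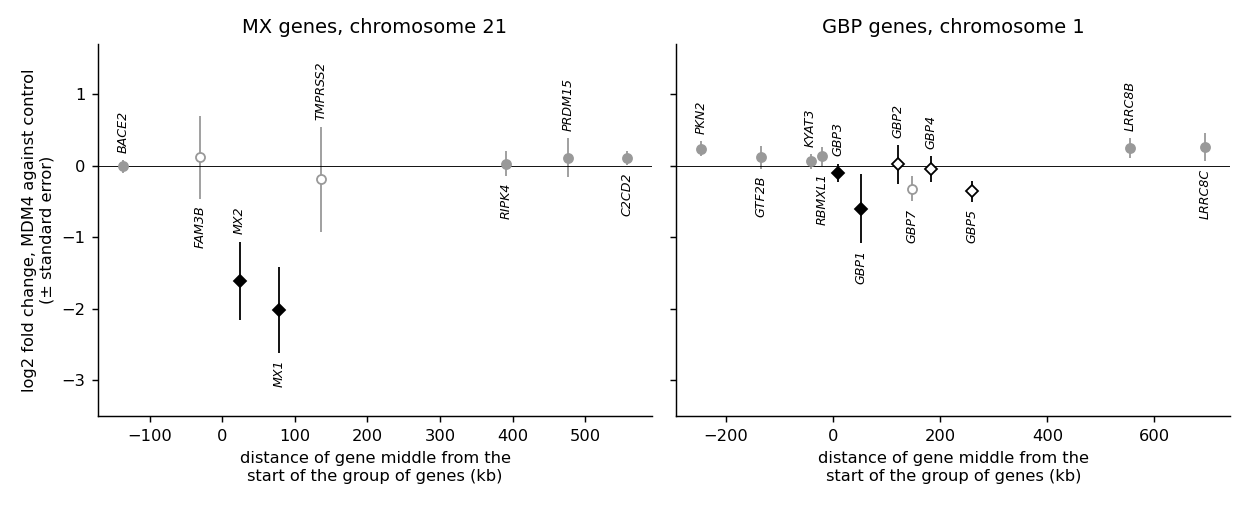
Log2 fold change (± standard error, limma, 3 libraries a group) of the 7 genes (black diamonds) and of other protein-coding genes within 500000 bases (grey circles), by the distance of the middle of each gene from the start of the MX or GBP group, with open symbols for genes under the filter of 0.5 FPKM. *MX2* and *MX1* lie at -1.61 and -2.01 between neighbours near 0, and the GBP genes lie between -0.60 and 0.02.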

How the data were processed

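RNA was sequenced from 3 control and 3 MDM4 libraries of SW480 cells. The labels call the second group exercised, and it was read as MDM4 because it is the only other group. The table's columns carry a letter and a number, read as group and replicate. The authors enriched mRNA with oligo(dT), sequenced it on the Illumina HiSeq2000 platform and deposited FPKM values per gene symbol. The aligner, the annotation, the build and the treatment of reads shared between similar genes are not given in the sources used here, so reads of near-identical GBP genes may be divided.

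Reads were recovered from the FPKM steps with a tolerance of 0.001 of a read. limma 3.58.1 (R 4.3.3; lmFit, eBayes with trend) was fitted to log2(FPKM + 0.1) for genes whose mean reached 0.5 FPKM, with p-values adjusted after Benjamini and Hochberg. The 7 genes, the lists and the tests were chosen with earlier results of these data known, and nothing is supported by that choice. Named genes are the 7, *MDM4*, the interferon ligands, receptors and signalling genes (of which 1 is not reported here), the 3 widest of each other list, the neighbours within 500000 bases and the 5 nearest profiles of each family.

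Same-numbered libraries were treated as pairs in the block, since deviations from group means correlated across genes at 0.46, 0.45 and 0.78 for replicates 1 to 3. Crossed pairs of replicates 1 and 2 reached 0.44 and 0.46 and those with replicate 3 lay between -0.62 and -0.56, so the check sets replicate 3 apart. Tables were made with Python 3.11.15 and pandas 2.3.3. The qPCR and co-culture experiments were not analysed here.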

Additional observations from a re-analysis of the deposited data

Results flagged for a closer look

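The MDM4 effect differed between replicate 3 and replicates 1 and 2 by a limma term for 25 of the 12884 genes (adjusted p under 0.05), of which 24 were higher in replicate 3. For *MX1* and *MX2* the term is given above as a description. It rests on 1 pair of libraries.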

How the results depend on the processing

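Against 0 genes over the 6 libraries, 2 genes were called with the replicate block, 37 over replicates 1 and 2 alone and 15 with voom and the block. Leaving out each library in turn gave between 0 and 16 genes, with 16 without control replicate 3 and 1 without MDM4 replicate 3. The alternatives for pseudocount, filter and scaling, eBayes without trend, and voom without the block left the count at 0. Among the 4 genes past the filter, *MX1* and *MX2* met the rule for a call over replicates 1 and 2 alone, with voom and the block, and without control replicate 3, as a description. The replicate block changed no other call on the 7 genes. The difference between the MX and GBP means was -2.24 over replicates 1 and 2, and between -1.98 and -1.14 with each library left out, with *GBP1* kept where it fell under the filter. The MX mean alone ran from -2.71 to -1.39 and that of *GBP1* and *GBP3* from -0.60 to -0.17. With a filter of 1 FPKM only *GBP3* was left, at -0.10. *GBP5* moved to -0.09 and -0.05 with pseudocounts of 0.5 and 1, and *GBP2* (-0.24 to 0.19) and *GBP4* (-0.17 to 0.07) took either sign. With the same pseudocounts *GBP1* was at -0.37 and -0.25, and the difference between the MX and GBP means at -1.46 and -1.40. The antiviral median was -1.65 over replicates 1 and 2 and -1.54 without control replicate 3, and that of the receptors was -0.21 without MDM4 replicate 3. The count of 25 genes for replicate 3 became 0 with all genes above 0. That fit, the list medians and the mean over all 5 GBP genes were added after seeing the data. The depth limits *GBP4* and *GBP5*, whose libraries hold between 2 and 18 reads, and such counts cover counting error only.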
